A study of Equus caballus with 15 samples.

Results

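CILP, CILP2, ANGPTL1, ANGPTL2, ANGPTL4, ANGPTL5 and ANGPTL7 encode 2 families of secreted proteins, and they make up 7 of the 30297 genes in a count table from horse muscle, tendon and the junction between them. They were picked by symbol because members of both families stood far higher in tendon than in muscle in these same libraries. The difference between tendon and muscle is therefore given as a description, with no test. All 7 symbols were found once in the table, and all 7 genes passed the filter on low counts that left 15343 genes.

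The samples came from 5 euthanized horses, 4 mares and 1 gelding aged 5 to 7 years, numbered 14, 16, 17, 18 and 20. A 4 mm punch of the superficial digital flexor muscle of a front limb, taken where it joins its tendon, was snap-frozen for cryosectioning, and about 200 micrometres were collected for each section type. The 3 groups are the myotendinous junction (MTJ, a section that also holds the muscle and tendon around the junction), the tendon and the muscle, with 1 library of each per horse and 15 in all. No horse received an experimental treatment that the labels name. The labels call 4 libraries sedentary and 11 trained, but the muscle of horse 14 is labelled sedentary and its MTJ and tendon trained, so training was not compared.

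CILP, the cartilage intermediate layer protein, is a glycoprotein of the extracellular matrix known from articular cartilage, where the human protein is cut by a furin-type protease and can bind TGF-beta and dampen IGF1 signalling. CILP2 is its closest relative. The angiopoietin-like proteins share a coiled-coil region and, in most members, a fibrinogen-like domain with the angiopoietins, but they are not known as ligands of the angiopoietin receptor TIE2 and act through integrins and other receptors or, in the case of ANGPTL4, by inhibiting lipoprotein lipase outside the cell.

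Libraries held 17160894 to 18659381 counts for the MTJ, 15304218 to 17048957 for tendon and 17115884 to 19295339 for muscle. Levels are CPM (read counts scaled to a common library size) after scaling by edgeR's trimmed mean of M values, whose factors ran from 0.671 to 1.88 and were above 1 only in tendon. The 12 muscle fibre markers summed to 198000 to 282000 CPM in the MTJ, 471 to 58700 in tendon and 293000 to 352000 in muscle, so that some tendon sections carried muscle RNA. By the authors' reference genes, 13.7, 17.6 and 11.7% of the muscle level was present in the tendon libraries of horses 14, 16 and 17, against 0.332 and 2.57% in those of horses 18 and 20. The 11 tenocyte markers summed to 1170 to 4870 CPM in the MTJ, 17600 to 32400 in tendon and 412 to 588 in muscle. COMP, a matrix protein of tendon and cartilage, averaged 8560 CPM in tendon, while TNMD (tenomodulin) averaged only 1.60 CPM and SCX (scleraxis) 0.211 CPM there. Because CILP is known from cartilage, 10 cartilage markers were also read. They summed to 8.78 to 55.1 CPM in the MTJ, 50.8 to 235 in tendon and 4.75 to 9.83 in muscle, and COL2A1, the defining cartilage collagen, averaged 0.157 CPM in the MTJ, 0.260 in tendon and 0.237 in muscle. Of the 4 markers abundant enough to test in edgeR, 3 were higher in tendon than in muscle (ACAN, HAPLN1 and CHAD) and 2 higher in the MTJ than in muscle (ACAN and HAPLN1). ACAN and HAPLN1 passed the filter only through their tendon counts, so their calls are not read as tests. Their lowest MTJ values were 0.404 and 0 CPM. ACAN, the proteoglycan aggrecan, averaged 5.13 CPM in the MTJ, 66 in tendon and 0.0767 in muscle. By their means ACAN, HAPLN1 and CHAD had the order tendon, MTJ, muscle, as the CILP genes did. SOX9, the other marker tested, averaged 4.22 CPM in tendon, 2.00 in the MTJ and 2.44 in muscle. COL2A1, MATN3, COL9A1, COL11A2 and CYTL1, all too low to test, also averaged less in the MTJ than in muscle. Between tendon sections the marker sum was highest in horses 16 and 17, at 235 and 233 CPM. In those 2 horses tendon CILP2 was highest and tendon CILP lowest. The part of these markers in the CILP values was not tested.

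CILP lies on chromosome 1 of the horse genome in the deposited annotation. It stood at 84.9, 45.6, 195, 162 and 158.5 CPM in the MTJ of horses 14, 16, 17, 18 and 20, at 1216, 1020, 717, 1358 and 1914 CPM in their tendon, and at 24.4, 23.5, 36.0, 36.3 and 46.7 CPM in their muscle. Tendon did not overlap the other section types, the lowest MTJ value (horse 16) lay just under the highest muscle value (horse 20), and the order was tendon, MTJ, muscle in 5 of 5 horses. CILP was the gene with rank 41 of 30297 by mean CPM in tendon, rank 1057 in the MTJ and rank 3765 in muscle. In bulk sections, fewer cells that make a transcript and less of it per cell cannot be told apart, here or for any gene below.

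CILP2, on chromosome 21, had 5.80, 2.35, 40.6, 7.33 and 7.90 CPM in the MTJ of the 5 horses in the same order, and 129.7, 273.6, 212.4, 72.1 and 183.0 CPM in tendon. Muscle held 1, 2, 5, 1 and 0 counts, a mean of 0.141 ± 0.149 CPM (SD, n = 5). CILP was thus plainly present in muscle and CILP2 close to the limit of counting there. On the scale of CPM per kilobase of the deposited gene length, the level of CILP was 4.89 to 22.5 times that of CILP2 in the MTJ, 3.44 to 19.2 times in tendon and 95.6 to 502 times in the muscle of the 4 horses with a CILP2 count. In the MTJ both genes were lowest in horse 16 and highest in horse 17, while in tendon CILP2 was lowest in horse 18 and CILP in horse 17.

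ANGPTL7, on chromosome 2, is a secreted protein best known from the cornea and the outflow tissue of the human eye. It had 48.0, 9.10, 167, 120.2 and 107 CPM in the MTJ of horses 14, 16, 17, 18 and 20, and 926.8, 1177, 1226, 2193 and 1817 CPM in tendon. Muscle had 0.773, 2.10, 0.691, 2.28 and 0.312 CPM, from 4 to 31 counts per library. No value of one section type reached that of another. ANGPTL7 had rank 33 of 30297 by CPM in tendon, ahead of CILP, and rank 48 on the scale of CPM per kilobase, where CILP had rank 115.

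ANGPTL5, on chromosome 7, is a member whose role is less well worked out. The MTJ had 2, 5, 47, 34 and 27 counts, or 0.145, 0.367, 3.04, 1.96 and 1.82 CPM, and tendon had 10.2, 27.6, 7.56, 17.5 and 22.1 CPM in horses 14, 16, 17, 18 and 20. No count was found in any muscle library. Against the limit that a count of 0 allows in these muscle libraries, 3 counts over the 5 libraries together or 0.0467 CPM, the pooled level was at least 32.8-fold higher in the MTJ, at 1.53 CPM, and at least 361-fold higher in tendon, at 16.9 CPM. A pooled level is the sum of the counts over the sum of the scaled library sizes. These limits cover counting error only.

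ANGPTL4, also on chromosome 7, is a secreted inhibitor of lipoprotein lipase that is induced by fasting, fatty acids and low oxygen. It had 0.580, 2.72, 3.49, 2.77 and 1.55 CPM in the MTJ, 6.58, 4.16, 11.4, 8.93 and 7.18 CPM in the tendon, with 0.541, 1.94, 2.61, 1.03 and 0.0779 CPM in muscle. Every tendon library was above every MTJ and muscle library, and the MTJ and muscle ranges overlapped. Muscle values rest on 1 to 34 counts and MTJ values on 8 to 54, so the ratio of the 2 varied from 1.07 to 19.9 between horses.

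ANGPTL2, on chromosome 25, is known in mouse and human as a pro-inflammatory factor that binds integrin alpha5 beta1. It had 31.2, 44.3, 51.6, 27.0 and 38.8 CPM in the MTJ, 80.4, 79.5, 69.0, 40.5 and 42.1 CPM in the tendon, with 19.5, 28.5, 35.0, 17.4 and 21.7 CPM in muscle. The MTJ range overlapped those of tendon and muscle, which did not overlap each other, and the order tendon, MTJ, muscle held in 5 of 5 horses. In tendon the 3 highest values were those of horses 14, 16 and 17.

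ANGPTL1, on chromosome 5, was described in human cells as an inhibitor of vessel growth. It had 12.8, 16.8, 14.3, 13.2 and 20.1 CPM in the MTJ, 11.6, 11.6, 10.7, 8.02 and 7.85 CPM in the tendon, with 4.10, 6.81, 12.7, 9.71 and 14.0 CPM in muscle. The MTJ was the highest of the 3 sections in 5 of 5 horses. The tendon and muscle ranges overlapped, with tendon above muscle in horses 14 and 16 and below it in horses 17, 18 and 20.

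**Figure D1:**
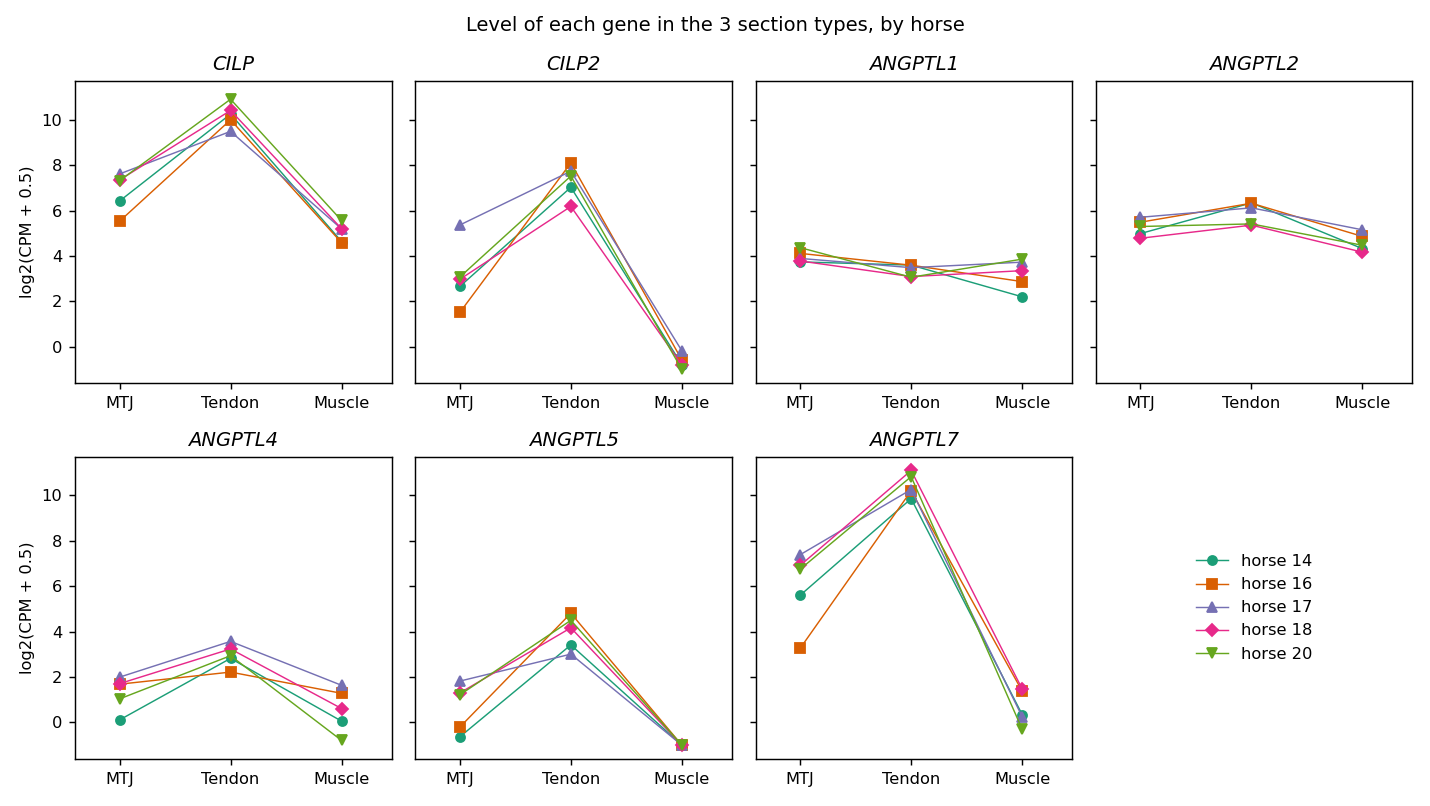
Level of each of the 7 genes as log2(CPM + 0.5) on the vertical axis in MTJ, tendon and muscle sections, with 1 line and marker per horse (5 horses). CILP2, ANGPTL5 and ANGPTL7 peak in tendon with no overlap between section types, CILP and ANGPTL4 peak in tendon with MTJ and muscle overlapping, and ANGPTL1 is highest in the MTJ.

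Set against length, the 7 genes took a different order in each section type. In tendon the means ran ANGPTL7 (651 ± 231 CPM per kilobase), CILP (312 ± 111), CILP2 (42.8 ± 19.0), ANGPTL2 (16.8 ± 5.33), ANGPTL5 (11.6 ± 5.64), ANGPTL4 (4.09 ± 1.45) and ANGPTL1 (3.00 ± 0.563; SD, n = 5 each). Of these neighbours, CILP and CILP2 were the pair whose ranges over the 5 horses did not overlap. In the MTJ the order was ANGPTL7 (40.0 ± 27.6 CPM per kilobase), CILP (32.4 ± 15.5), ANGPTL2 (10.4 ± 2.68), ANGPTL1 (4.66 ± 0.913), CILP2 (3.15 ± 3.86), ANGPTL4 (1.19 ± 0.616) and ANGPTL5 (0.999 ± 0.820). There ANGPTL2 and ANGPTL1 were the neighbours with separate ranges. In muscle CILP (8.36 ± 2.42 CPM per kilobase) and ANGPTL2 (6.60 ± 1.96) led with overlapping ranges, followed by ANGPTL1 at 2.86 ± 1.24, ANGPTL4 at 0.663 ± 0.551, ANGPTL7 at 0.547 ± 0.397 and CILP2 at 0.0346 ± 0.0365. There ANGPTL2 and ANGPTL1, and ANGPTL7 and CILP2, were neighbours whose ranges did not overlap.

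The angiopoietin-like family therefore had a different leading member in tendon and in muscle. Over all family genes in the table, ANGPTL7 made up 91.7 to 96.9% of the summed CPM per kilobase in tendon and 1.25 to 10.7% in muscle. In the MTJ its share was 61.6, 17.1, 76.5, 78.7 and 71.5% in horses 14, 16, 17, 18 and 20. ANGPTL2 was the largest share in every muscle library, at 50.1 to 67.7%, and also in the MTJ of horse 16, at 50.8%. ANGPTL1 gave 15.9 to 38.3% in muscle and 0.241 to 0.781% in tendon. The summed family level was 23.6 to 96.8 CPM per kilobase in the MTJ, 448 to 1004 in tendon and 7.78 to 15.6 in muscle.

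**Figure D2:**
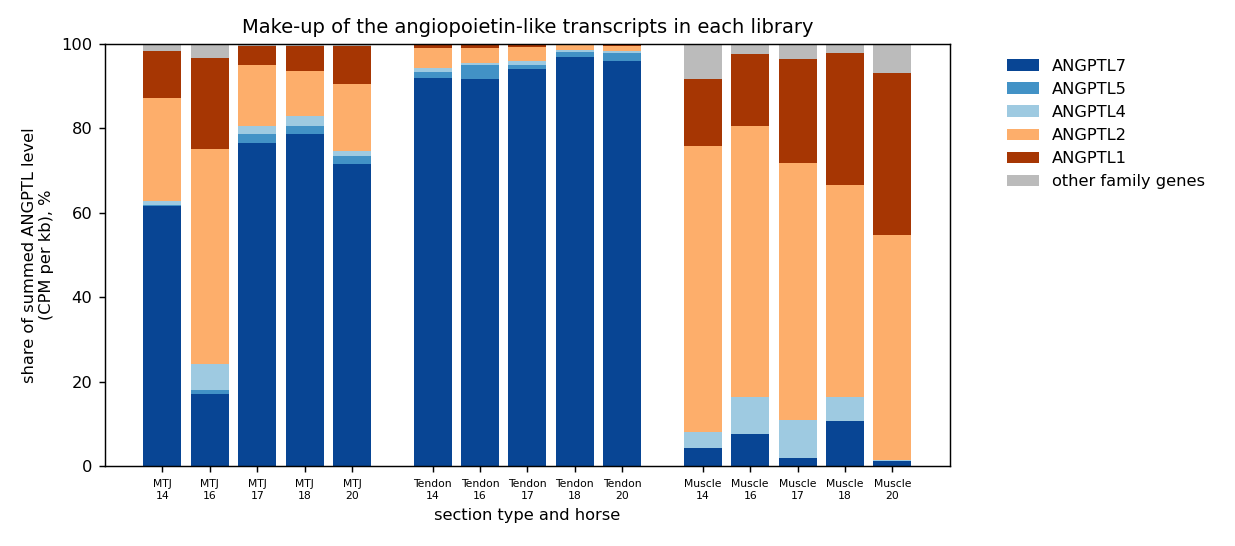
Share of the summed angiopoietin-like level (CPM per kilobase, percent) taken by each family gene in the 15 libraries, grouped as MTJ, tendon and muscle and ordered by horse. ANGPTL7 fills at least 91.7% of every tendon bar, and ANGPTL2 is the largest share in all 5 muscle bars and in the MTJ bar of horse 16.

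The log2 fold changes of tendon over muscle, fitted in edgeR with the horse as a block, describe the same spread without a test. They were 5.26 ± 0.32 for CILP, 10.46 ± 0.84 for CILP2, 10.20 ± 0.90 for ANGPTL7, 2.84 ± 0.47 for ANGPTL4, 1.35 ± 0.16 for ANGPTL2 and 0.13 ± 0.27 for ANGPTL1 (SE, 5 horses). The fitted value of 11.34 ± 1.49 for ANGPTL5 has no muscle count behind it, and the lower bound given above is the measure for that gene. The median over all 15343 genes was 0.13. ANGPTL1 thus stood at the median of all genes, and the value depended on the libraries and the scaling: it was -0.41 without the tendon libraries of horses 14, 16 and 17, where muscle RNA was highest, and 1.37 with library totals alone, a scaling that moved the median of all genes to 1.36. ANGPTL2 was at 1.04 and ANGPTL4 at 3.26 without those 3 tendon libraries.

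Whether these genes were also higher in the junction section than in the muscle beside it was tested across all genes with edgeR's quasi-likelihood test, with Benjamini-Hochberg adjustment and a threshold of 0.05. Of the 7 genes, 4 were higher in the MTJ and 0 lower, where 6.17% of all genes tested were higher. The muscle libraries also entered the comparison by which the genes were picked, so this count is not independent of the choice. ANGPTL7 was higher by 6.02 ± 0.80 on the log2 scale (SE; adjusted p = 0.00177), CILP2 by 6.27 ± 0.89 (adjusted p = 0.00312), CILP by 1.89 ± 0.28 (adjusted p = 0.00143) and ANGPTL2 by 0.67 ± 0.15 (adjusted p = 0.0191). The count includes CILP2, whose muscle libraries held only 0 to 5 counts. CILP2 passed the filter through its MTJ and tendon counts alone, so its adjusted p here is not read as a test. ANGPTL5 entered this test only through its tendon counts, since the filter applied to the MTJ and muscle alone removed it, so its adjusted p of 0.101 here and of 1.38e-05 with DESeq2 are not read as a test. ANGPTL1 had a log2 change of 0.74 (95% interval 0.16 to 1.31, adjusted p = 0.132) and ANGPTL4 of 0.91 (-0.15 to 1.97, adjusted p = 0.320). For every one of the 7 genes the MTJ was above the muscle of the same horse in 5 of 5 horses. In horse 14 this rested on 8 against 7 counts for ANGPTL4 and on 2 against 0 counts for ANGPTL5. No share of all genes with this order is given, so the order has no background to be read against.

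The call for ANGPTL2 did not hold in every setting. Its adjusted p was 0.191 without the replicate block and 0.0696, 0.0526, 0.0534 and 0.0583 without horses 16, 17, 18 and 20, with the log2 change between 0.62 and 0.90 over all settings. ANGPTL1 passed with library totals alone (adjusted p = 0.0203), in a fit of the MTJ and muscle only (0.0145) and without the 3 tendon libraries named above (0.0338).

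Set against tendon, 6 of the 7 genes were lower in the MTJ and 0 higher in the same edgeR test, where 34.4% of all genes were lower; the tendon libraries likewise took part in the choice of genes. CILP differed by -3.37 ± 0.30 on the log2 scale (adjusted p = 1.04e-06), CILP2 by -4.19 ± 0.55 (adjusted p = 0.000122) and ANGPTL7 by -4.17 ± 0.69 (adjusted p = 0.000416). The count includes ANGPTL5, at -3.59 ± 0.73 (adjusted p = 0.00593). That gene passed the filter only through its tendon counts, so its adjusted p is not read as a test. ANGPTL4 differed by -1.93 ± 0.44 (adjusted p = 0.00191) and ANGPTL2 by -0.68 ± 0.15 (adjusted p = 0.00157). The ANGPTL2 difference was -0.37 (adjusted p = 0.0228) without the tendon libraries of horses 14, 16 and 17 and -1.69 (adjusted p = 3.53e-07) with library totals alone. ANGPTL1 had the opposite sign, 0.60 ± 0.26 (95% interval 0.04 to 1.16, adjusted p = 0.0544), with the MTJ above tendon in 5 of 5 horses. It reversed to -0.40 (adjusted p = 0.140) with library totals alone, which moved the median of all genes to -1.11, and it was 1.19 (adjusted p = 0.00548) without the tendon libraries of horses 14, 16 and 17.

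Expressed as the MTJ level in percent of the tendon level of the same horse, the 7 genes covered a wide range, which was set beside that of other tendon genes. The mean was 6.18 ± 4.63% for ANGPTL7, 7.79 ± 7.16% for CILP2, 11.8 ± 9.03% for CILP, 12.5 ± 16.1% for ANGPTL5, 31.5 ± 21.0% for ANGPTL4, 65.7 ± 20.1% for ANGPTL2 and 162 ± 55.9% for ANGPTL1 (SD, n = 5). The yardstick is a list of tendon-enriched genes that the authors deposited, which held 4 of the 7 genes (ANGPTL5, CILP2, ANGPTL7 and CILP, at places 2, 8, 9 and 92 of 322) and had 318 left once these were removed. The authors chose that list on these libraries. The 318 genes had a median of 17.1%, with the 5th percentile at 6.63% and the 95th at 32.8%. Of them, 11 were lower than ANGPTL7, 25 lower than CILP2, 73 lower than CILP and 89 lower than ANGPTL5, while 299 were lower than ANGPTL4, 315 lower than ANGPTL2 and 317 lower than ANGPTL1. By these means ANGPTL7 was below the 5th percentile of these genes, ANGPTL4 just inside the 95th, and ANGPTL2 and ANGPTL1 above it. Taken horse by horse, ANGPTL7 was below the 5th percentile in horse 16 only. The share of these genes lower than ANGPTL7 was 11.6, 2.83, 9.43, 6.29 and 12.3% in horses 14, 16, 17, 18 and 20. For ANGPTL4 that share was 26.1, 99.7, 71.4, 88.7 and 84.6%.

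The percentages varied widely between horses. ANGPTL7 retained 5.18, 0.773, 13.6, 5.48 and 5.89% in horses 14, 16, 17, 18 and 20, and CILP2 retained 4.47, 0.859, 19.1, 10.2 and 4.32%. Horse 16 was lowest and horse 17 highest for ANGPTL7, CILP2, CILP and ANGPTL5. The tendon share of the MTJ section, read from the reference genes, was also highest in horse 17, at 24.5%, and 13.9, 12.5, 16.9 and 12.4% in horses 14, 16, 18 and 20; its part in the spread was not tested. Without horse 16 the means were 7.54 ± 4.05% for ANGPTL7, 9.52 ± 6.95% for CILP2, 13.6 ± 9.31% for CILP and 15.3 ± 17.1% for ANGPTL5 (SD, n = 4). Without horse 17 they were 4.33 ± 2.39% for ANGPTL7, 4.96 ± 3.87% for CILP2, 7.91 ± 3.10% for CILP and 5.55 ± 4.97% for ANGPTL5 (SD, n = 4), so that the ANGPTL5 and CILP2 means rest largely on that horse.

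**Figure D3:**
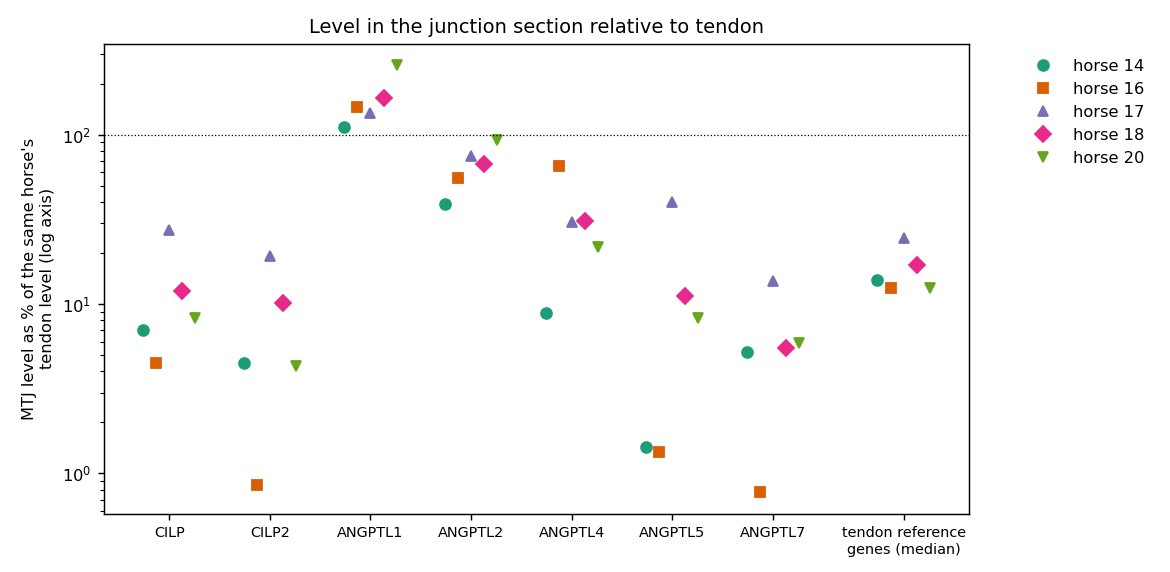
MTJ level as a percentage of the tendon level of the same horse (log axis) for each gene and for the median of the 318 tendon reference genes, 1 marker per horse, with the dotted line at 100%. ANGPTL7 and CILP2 lie below the reference median of the same horse in 5 of 5 horses, and ANGPTL1 and ANGPTL2 above it in 5 of 5.

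Because the MTJ section holds muscle and tendon as well as the junction, its level of each gene was also compared with a mixture of the same horse's muscle and tendon. The shares came from 217 muscle and 318 tendon reference genes and averaged 77.6 ± 5.66% muscle and 16.0 ± 5.07% tendon (SD, n = 5). None of the 7 genes passed the threshold, 0 above and 0 below, in limma over the 5 ratios per gene with Benjamini-Hochberg adjustment over all genes, where 0.795% of all genes were above the mixture and 0.222% below. At an unadjusted p under 0.05, 2 of the genes were above the mixture and 3 below, against 10.5 and 4.91% of all genes. The mixture is built from the tendon and muscle libraries by which the genes were picked. These counts and the ranks below are therefore not independent of the choice.

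The 4 genes most abundant in tendon relative to muscle had means below the mixture. The log2 ratio of MTJ to mixture was -1.42, -3.96, -0.85, -1.62 and -1.07 for ANGPTL7 in horses 14, 16, 17, 18 and 20, a mean of -1.79 ± 0.44 (SE; 95% interval -2.83 to -0.75, adjusted p = 0.132). That mean had rank 7 from the lowest of 15343 genes. Of the 10 tenocyte markers tested, 3 were above the mixture and 4 below at an unadjusted p under 0.05 in limma. COMP, at -1.75 ± 0.41, and LOX, at -1.71 ± 0.31, were the lowest of those markers. With muscle and tendon shares made to sum to 1, the means shrank to -1.13 for ANGPTL7, -0.90 for CILP2, -0.35 for CILP and -0.30 for ANGPTL5. CILP2 averaged -1.54 ± 0.44 (adjusted p = 0.184, rank 15), CILP -0.86 ± 0.22 (adjusted p = 0.142, rank 74) and ANGPTL5 -0.83 ± 0.38 (adjusted p = 0.358, rank 87). The MTJ values of ANGPTL5 in horses 14 and 16, 0.145 and 0.367 CPM, lay below the 0.5 CPM added. Its mean depended on that constant, at -1.20 with 0.1 CPM added and -0.42 with 2 CPM. ANGPTL7, CILP2 and CILP were below the mixture in 5 of 5 horses and ANGPTL5 in all but horse 17.

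ANGPTL1 and ANGPTL2 had means above it. The ratio for ANGPTL1 was 1.30, 1.18, 0.22, 0.69 and 0.71, a mean of 0.82 ± 0.17 (adjusted p = 0.0837), and that for ANGPTL2 averaged 0.43 ± 0.10 (adjusted p = 0.132). Both were above the mixture in 5 of 5 horses, at ranks 188 and 780 from the highest. Markers of 2 other cell types moved the same way. Macrophage markers were above the mixture in 8 of 9 genes at an unadjusted p under 0.05 (1 after adjustment) and higher in the MTJ than in muscle in 5 of 9, with a summed level of 148 to 276 CPM in the MTJ, 244 to 446 in tendon and 57.4 to 163 in muscle. Markers of fibro-adipogenic progenitors were above the mixture in 5 of 6 genes at an unadjusted p under 0.05 (0 after adjustment) and higher in the MTJ than in muscle in 3 of 6, with a summed level of 422 to 574 CPM in the MTJ, 741 to 955 in tendon and 200 to 347 in muscle. Their part in the ANGPTL1 and ANGPTL2 values was not tested. ANGPTL4 averaged -0.02 ± 0.20 (95% interval -0.50 to 0.45, adjusted p = 0.968), above in 3 horses and below in horses 14 and 17. With 2 CPM in place of 0.5 CPM added to both sides, ANGPTL1 at 0.72 (adjusted p = 0.0294) and ANGPTL7 at -1.74 (adjusted p = 0.0471) passed the threshold.

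The authors' deposited table of MTJ changes covers 7613 genes, 4 of them among the 7. In the authors' deposited table ANGPTL1 had a mean log2 change of 0.86 (false discovery rate 0.0986, place 63 from the highest) and ANGPTL2 one of 0.44 (0.0972, place 233). The same authors' deposited table gave CILP -0.86 at place 7599 and ANGPTL7 -1.79 at place 7612, both with a false discovery rate that rounds to 1.00. Those rates match a one-sided test for levels above the mixture, with a largest difference of 3.28e-15, so they carry no test of levels below it.

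**Figure D4:**
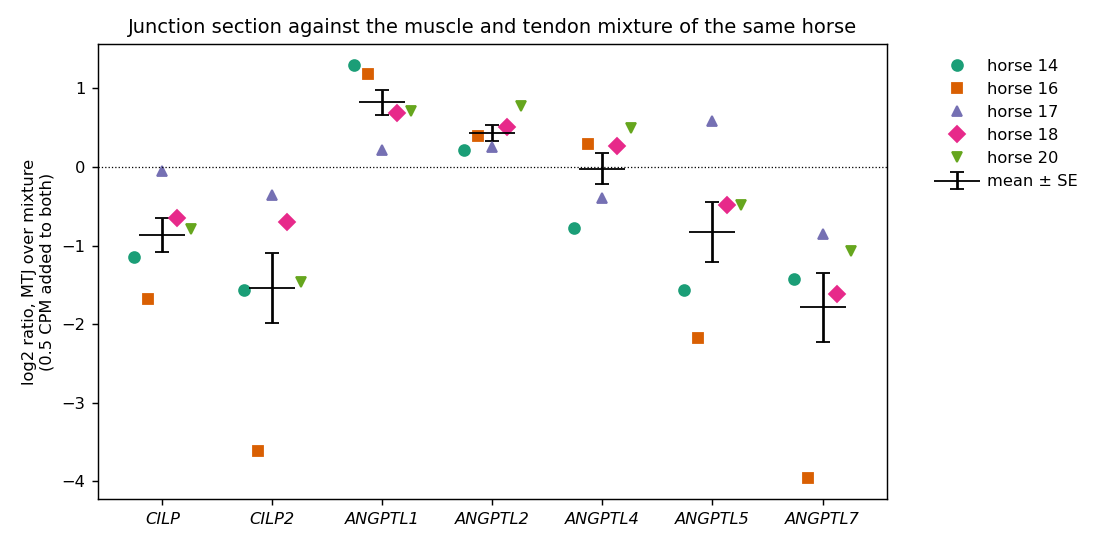
Log2 ratio of the MTJ level to the muscle and tendon mixture of the same horse, 0.5 CPM added to both, with 1 marker per horse and the mean ± SE in black. ANGPTL1 and ANGPTL2 are above 0 in all 5 horses, CILP, CILP2 and ANGPTL7 below 0 in all 5, and horse 16 is lowest for CILP2 at -3.61 and for ANGPTL7 at -3.96.

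The genes with the most similar profile over the 15 libraries were found by the root mean square difference of log2(CPM + 0.5) after each profile was centred on its own mean, over the genes with a symbol and a mean of at least 5 CPM. Nearest to CILP were DCN, the small proteoglycan decorin (0.285), PLXDC2 (0.329) and GPX3, a secreted glutathione peroxidase (0.341). DCN was also nearest to ANGPTL5 (0.403), followed by SH3GL2 (0.453) and PLXDC2 (0.456). ANGPTL5 had no count in muscle, so its values there are the added 0.5 CPM and its distances depend on that constant. CILP2 had DKK1, a secreted Wnt antagonist (0.578), CCDC3 (0.682) and LOX, the collagen cross-linking lysyl oxidase (0.709). ANGPTL7 stood further from any gene, with LOX at 0.772, COMP at 0.942 and CILP2 at 1.18. In percent of tendon these partners had means of 6.58 ± 6.69 for LOX and 7.04 ± 7.60 for COMP, and 13.5 ± 9.74 for DCN (SD, n = 5).

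The other genes had neighbours of another kind. ANGPTL2 was nearest to STAB1, a scavenger receptor of macrophages and some endothelium (0.275), LAMB2, a laminin chain (0.278), and DYNC2H1, a motor protein of cilia (0.297). ANGPTL1 was nearest to ABCA9 (0.355), BMP4, a growth factor of the TGF-beta superfamily (0.375), and RPUSD4 (0.386). ANGPTL4 had TRIL (0.404), CCND2, a cyclin (0.465), and EPB41L4B (0.480). Within the 7 genes the closest pair was CILP and ANGPTL5 (0.480), and the most distant was ANGPTL1 and ANGPTL7 (4.11). The first distance depends on the 0.5 CPM added to the empty ANGPTL5 muscle values. Tendon stood at least 361-fold above muscle for ANGPTL5, and 19.9 to 50 times above it for CILP. These distances share depth, scaling and horses over the same 15 libraries.

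Of the other family genes, ANGPTL6 averaged 0.804 ± 0.417 CPM in the MTJ, 1.42 ± 0.520 in tendon and 0.623 ± 0.187 in muscle, and was higher in tendon than in muscle by 1.14 ± 0.36 (edgeR, adjusted p = 0.0119), a call lost without horse 16 (adjusted p = 0.0574). ANGPTL8, which takes part in the control of lipoprotein lipase, had a log2 change of 1.01 ± 0.55 (adjusted p = 0.111). Across all genes tested, 38.6% were higher in tendon than in muscle and 34.5% lower, and every count of partner genes below is read against these shares.

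The receptors and substrates through which these proteins act differed by group. Of 5 integrin genes tested, 4 were higher in tendon than in muscle and 0 lower, with a list median of 2.46 on the log2 scale against 0.13 over all genes. ITGB3 averaged 5.46 ± 2.41 CPM in the MTJ, 11.4 ± 3.13 in tendon and 2.10 ± 0.869 in muscle, with a log2 change of tendon over muscle of 2.50 ± 0.28 (edgeR, adjusted p = 3.55e-06). ITGA5, the alpha5 chain that binds fibronectin, changed by 2.47 ± 0.24 (adjusted p = 2.20e-06), ITGB5 by 2.46 ± 0.14 (adjusted p = 1.66e-08) and ITGAV by 0.83 ± 0.14 (adjusted p = 0.000163). ITGB1, the common beta chain, had 283 ± 14.1 CPM in the MTJ, 244 ± 36.8 in tendon and 235 ± 14.7 in muscle. In the MTJ over muscle, 3 integrin genes were higher (ITGB3 by 1.39, ITGA5 by 1.00 and ITGB5 by 0.63), and each of these calls was lost on leaving out at least 1 horse.

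Of 10 genes of the lipoprotein lipase system, the target of ANGPTL4, 6 were abundant enough to test. Of these, 0 were higher and 4 lower in tendon than in muscle, with a list median of -1.59, and 3 were higher and 3 lower with library totals alone. LPL, the lipase itself, averaged 374 ± 79.4 CPM in the MTJ, 46.9 ± 45.1 in tendon and 535 ± 155 in muscle, a log2 change of tendon over muscle of -3.98 ± 0.61 (edgeR, adjusted p = 0.000202). VLDLR, a lipoprotein receptor, changed by -3.22 ± 0.48 (adjusted p = 0.000197) and CD36, a fatty acid transporter, by -2.17 ± 0.19 (adjusted p = 4.37e-07). SEL1L, which helps the lipase mature in the endoplasmic reticulum, changed by -1.0 ± 0.09 (adjusted p = 3.52e-07) but by 0.24 (adjusted p = 0.0192) with library totals alone. The 9 adipocyte markers summed to 60.0 to 194 CPM in the MTJ, 30.9 to 63.6 in tendon and 99.9 to 195 in muscle, and LEP had no count in any library. Of the 6 adipocyte markers tested in edgeR, 0 were higher and 2 lower in tendon than in muscle, and the MTJ was higher than tendon in 4. CIDEA, a lipid droplet protein, was higher in the MTJ than in muscle (3.37 ± 0.80, adjusted p = 0.0305) and above the mixture (limma, 2.58 ± 0.32, adjusted p = 0.0232). Muscle fibre markers had a list median of -3.87 in tendon over muscle, close to the LPL change. The tendon libraries carried 0.332 to 17.6% of the muscle level by the reference genes. The part of that muscle RNA, or of the adipocyte markers, in the LPL and VLDLR values was not tested. In the MTJ over muscle, 0 of the 6 genes passed the edgeR threshold, 1 was lower at an unadjusted p under 0.05, and 1 was lower with DESeq2.

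Genes that respond to fatty acids, low oxygen and glucocorticoids, the signals known to induce ANGPTL4, went in both directions. Of 15 tested, 8 were higher in tendon than in muscle and 4 lower, with a median of 0.41, and 11 were higher and 1 lower with library totals alone. CPT1A, an enzyme of fatty acid import into mitochondria, changed by 2.93 ± 0.34 (edgeR, adjusted p = 1.37e-05), TSC22D3, a glucocorticoid-induced gene, by 2.54 ± 0.18 (adjusted p = 6.20e-08) and HIF1A, the oxygen-regulated transcription factor, by 1.82 ± 0.17 (adjusted p = 5.75e-07). PPARA, the fatty acid receptor, changed by -2.65 ± 0.34 (adjusted p = 3.57e-05). In the MTJ over muscle, TSC22D3 was the 1 gene of the list that passed, at 0.64 ± 0.17 (adjusted p = 0.0394), and its call was lost without any 1 of the 5 horses.

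Genes of TGF-beta and IGF1 signalling, to which CILP is linked, were higher in tendon in 10 of 13 tested and lower in 0, with a median of 1.42. IGFBP3, a carrier of IGF1, averaged 8.56 ± 4.30 CPM in MTJ sections, 78.5 ± 52.4 in tendon sections and 4.45 ± 2.05 in muscle, a log2 change of tendon over muscle of 4.10 ± 0.45 (edgeR, adjusted p = 1.84e-05). IGFBP5, another IGF-binding protein, changed by 2.54 ± 0.61 (adjusted p = 0.00395) and TGFBR2, the type II receptor, by 2.47 ± 0.10 (adjusted p = 3.24e-09). IGF1 itself had 35.0 ± 2.19 CPM in the MTJ, 29.2 ± 14.7 in tendon and 25.5 ± 6.73 in muscle, and TGFB1 was too low to test. Against muscle, 2 genes of the list were higher in the MTJ, TGFBR2 at 0.96 ± 0.10 (adjusted p = 9.71e-05) and IGF1R at 0.47 ± 0.10 (adjusted p = 0.0132), the second lost without horse 14, 17 or 18.

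Of the 4 proprotein convertases tested, 2 were higher in tendon than in muscle and 0 lower, with a median of 0.46, and 4 were higher with library totals alone. The 2 genes were PCSK6 at 2.22 ± 0.20 (edgeR, adjusted p = 4.61e-07) and PCSK5 at 0.92 ± 0.17 (adjusted p = 0.000317). FURIN itself had 10.9 ± 3.72 CPM in the MTJ, 10.3 ± 3.67 in tendon and 10.2 ± 2.60 in muscle. PCSK5 was also higher in the MTJ than in muscle, by 0.66 ± 0.17 (adjusted p = 0.0375), a call lost without horse 16, 17, 18 or 20.

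The angiopoietins, after which the angiopoietin-like proteins are named, were listed with the Tie receptors. Of 7 genes tested, 4 were higher and 1 lower in tendon than in muscle, with a median of 1.01. With library totals alone, 7 were higher and 0 lower. SVEP1, a large matrix protein, averaged 23.3 ± 5.73 CPM in the MTJ, 153 ± 68.7 in tendon and 16.2 ± 4.99 in muscle, a change of tendon over muscle of 3.20 ± 0.27 (edgeR, adjusted p = 9.38e-07). ANGPT4 changed by 2.40 ± 0.67 (adjusted p = 0.00703), a call lost without the tendon libraries of horses 14, 16 and 17 (adjusted p = 0.286), ANGPT1 by 1.20 ± 0.31 (adjusted p = 0.00404) and TIE1 by 1.01 ± 0.20 (adjusted p = 0.000550). PTPRB, the endothelial phosphatase that acts on TIE2, was the lower gene at -0.61 ± 0.18 (adjusted p = 0.00970). TEK, which encodes TIE2, had 36.7 ± 4.34 CPM in the MTJ, 40.4 ± 12.3 in tendon and 32.8 ± 3.97 in muscle. In the MTJ over muscle 0 of the 7 passed by edgeR and 0 by DESeq2, and 1 was higher at an unadjusted p under 0.05 in edgeR. The 8 endothelial markers summed to 337 to 527 CPM in the MTJ, 458 to 1000 in tendon and 319 to 495 in muscle; their part in these values was not tested.

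**Figure D5:**
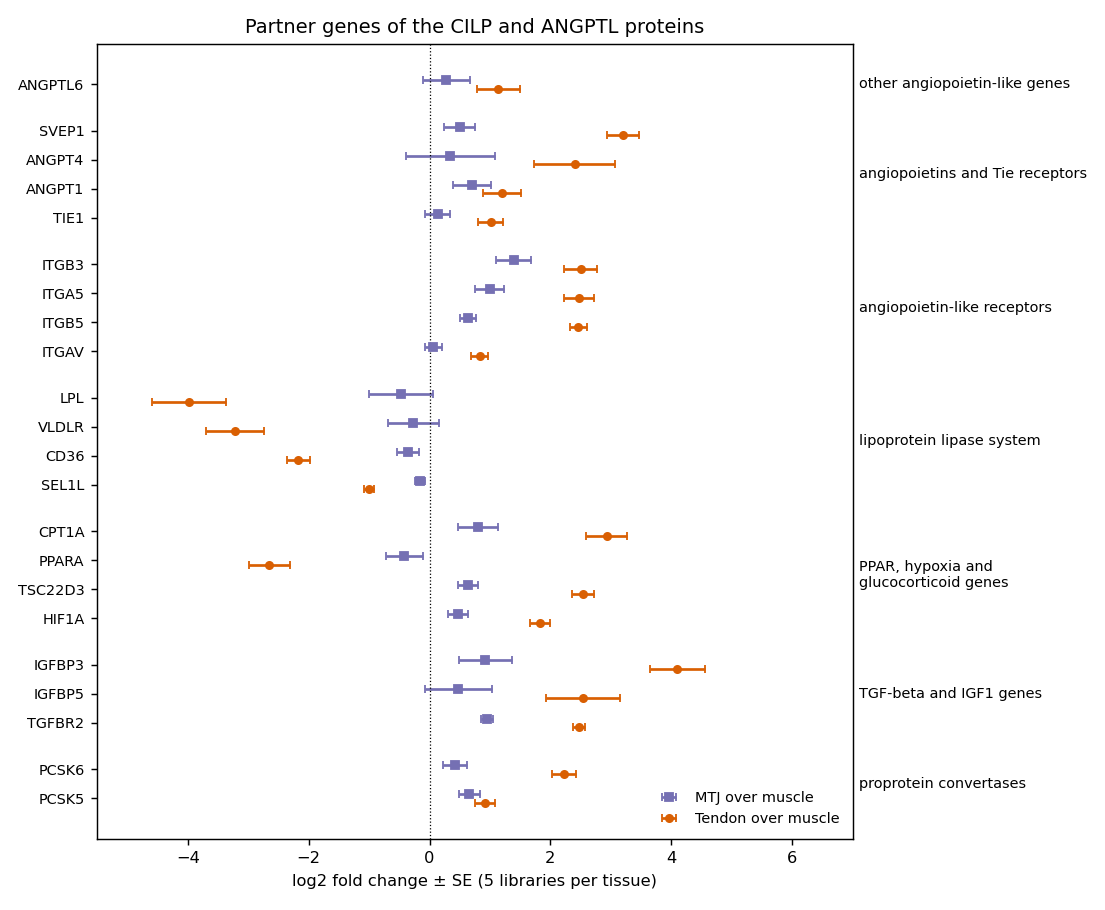
Log2 fold change ± SE of called partner genes with large tendon changes in each list, for the MTJ over muscle (purple squares) and tendon over muscle (orange circles), 5 libraries per tissue. Receptor, TGF-beta and IGF1 genes lie to the right of 0 in tendon and LPL, VLDLR, CD36 and SEL1L to the left. The MTJ values lie closer to 0 than the tendon values for every gene drawn. The genes were picked by the size of their tendon change, so that difference is a description and no test.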

How the data were processed

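Per the file headers, the authors deposited raw read counts per gene for 15 libraries, with NCBI gene numbers, symbols, chromosomes and a length taken here as bases. The submitters' processing notes name genome build EquCab 3.0 and DESeq2 1.26.0; the aligner, the counting tool and whether strand was used are not given in the labels or headers, so overlapping genes may share reads. The authors also deposited log2 changes of the MTJ with p-values adjusted as false discovery rates, and lists of muscle and tendon reference genes, per the file headers. Per the labels' protocols, mRNA was selected by its poly-A tail or ribosomal RNA was depleted, and random primers were used for cDNA.

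Counts as deposited were analysed in R 4.3.3. Genes were filtered by edgeR 4.0.16 on group size (15343 kept, 14954 removed), scaled by trimmed mean of M values, and tested by the robust quasi-likelihood test over all 15 libraries with the horse as a block, Benjamini-Hochberg adjusted over all genes. Ratios of the MTJ to the mixture, 0.5 CPM added to both sides, were tested with limma 3.58.1. DESeq2 1.42.0, other scalings, filters, added CPM, the fit without the block and leaving out libraries were alternatives. The horse numbers come from the labels and pair the samples: deviations from the group means of the 15 same-horse pairs correlated at 0.15 to 0.589. All libraries of a horse come from 1 animal. With the horse as a block, the edgeR p-values measure how tissue differences vary between the 5 horses, over all 3 tissues. The limma p-values measure how the ratio of MTJ to mixture varies between the 5 horses. Totals of 15304218 to 19295339 counts set the precision, and the limit for 0 was 3 counts. In simulated data, log2 changes of 1 were recovered in 53.1% of genes for the MTJ over muscle and 56% for the MTJ over tendon. Against the mixture the share was 39.4%. For changes of 2 the shares were 82.5, 83.7 and 86.6%. False calls made up 0.02 to 0.05% of unchanged genes. A gene that did not pass against the mixture may thus still differ from it.

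All 7 genes are described. From each gene list, up to 4 called genes with the largest tendon change were named, except 1 that is not reported here, and listed genes called in the MTJ over muscle; for each of the 7 genes the 3 nearest profiles were named. ITGB1, IGF1, TGFB1, FURIN, TEK, PTPRB, ANGPTL8 and single marker genes of cell types were named after their values were seen. The members and lists were chosen with earlier results of these data known. Of 144 listed symbols, 2 were not matched in the table.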

Additional observations from a re-analysis of the deposited data

Results flagged for a closer look

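CILP2 stood at 40.6 CPM in the MTJ of horse 17, far from the 2.35 to 7.90 CPM of the other 4 MTJ sections. The tendon share of that section was 24.5%, the highest of the 5. The log2 ratio of MTJ to mixture for ANGPTL7 was -3.96 in horse 16, against -1.62 to -0.85 in the other 4 horses. These 2 values stood apart in groups of 5 by the gap to the nearest value over the whole range, with 0.71 as the critical value, among 27 groups examined; chance sets apart about 1 group in 20.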

How the results depend on the processing

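With library totals alone, ANGPTL1 in the MTJ over tendon reversed to -0.40 and SEL1L in tendon over muscle to 0.24. ANGPTL4 against the mixture reversed to 0.13 with shares that sum to 1, and to 0.16 and 0.07 without horses 14 and 17, while leaving out horses in turn gave -0.155 to 0.164. The count of the 7 genes higher in the MTJ than in tendon was 1 (ANGPTL1) without the replicate block, in a fit of those 2 tissues alone and when the tendon of horses 14, 16 and 17 was left out, and 0 to 1 on leaving out 1 horse. With 2 CPM added, 1 of the 7 was above the mixture and 1 below. Leaving out 1 horse gave 3 to 4 of the 7 higher in the MTJ than in muscle and 6 to 6 lower than in tendon. The genes lower than in tendon include ANGPTL5, which passed the filter only through its tendon counts. Those higher than in muscle include CILP2, whose muscle counts were too low to add to passing the filter.

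Over all genes, library totals gave 11368 higher in tendon than in muscle (85.6% of calls, against 52.7%), 2358 higher in the MTJ than in muscle, and 10818 lower in the MTJ than in tendon (15.4% of calls higher, against 48.8%). A fit of the MTJ and muscle alone gave 1488 higher (50.6% of calls, against 91.8%; 80.2% with DESeq2), and leaving out 1 horse 576 to 741. Genes above the mixture numbered 63 with 0.1 CPM added, 280 with 2 CPM, 15 with no filter and 6 to 59 without 1 horse; genes below numbered 12, 92 and 4 in the same settings, 18 with shares that sum to 1 and 0 to 24 without 1 horse. The cause of these shifts was not tested.

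The block on the horse, a pairing by animal, changed these calls in the MTJ over muscle: without it the adjusted p was 0.191 for ANGPTL2 and 0.0183 for ANGPTL5. ANGPTL5 is no test in this comparison, since the filter on the MTJ and muscle alone removed it; its adjusted p was also under 0.05 without a robust estimate of the spread (0.0389, chosen after seeing the data) and without the 3 tendon libraries (0.000260). Of the partner genes, ITGA5 (0.0672), ITGB5 (0.125), TSC22D3 (0.1) and PCSK5 (0.118) lost their calls without the block. In the MTJ over tendon, ANGPTL1 had 0.0444 without the block. Low counts limit ANGPTL5, CILP2 and ANGPTL4 in muscle and the MTJ.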
